A study of Mus musculus with 30 samples.

Results

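Glial and vascular genes were followed in libraries of sorted mouse retinal ganglion cells, whose axons make up the optic nerve. The set held 31 genes of the 24033 symbols used from the gene count table, and it was made by taking the rows with the listed symbols. It comprised 13 genes known from Müller glia and astrocytes, 9 from endothelium, 6 from mural cells (pericytes and smooth muscle) and 3 of basement membrane and adhesion. The mice were LSL-Cas9-GFP; Vglut2-Cre animals, in which Cre under the Vglut2 promoter switches on Cas9 and GFP, so that editing is limited to cells of that lineage. AAV2 was injected into the vitreous with non-targeting sgRNAs (NT) or with sgRNAs to Ssrp1 (SSRP1KO), a gene for a subunit of the histone chaperone FACT, and the optic nerve was crushed 2 weeks later. Cells were taken without crush (no crush) or at 1, 2, 3 and 4 days post crush (dpc), which gave 10 groups of 3 libraries. Live Calcein Blue positive cells were sorted by CD90.2 (a surface antigen), GFP or mCherry, singly or combined, and RNA was amplified with a SMART-Seq low-input kit. The gate therefore did not require that each cell carried an sgRNA. The age of the mice is not in the labels. The labels do not state whether the libraries within a group are from different mice. All p-values therefore refer to the spread among libraries as deposited, part or all of which could be technical.

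Müller glia span the retina and recycle glutamate, potassium and water for its neurons. After injury of the optic nerve they and the astrocytes of the nerve fibre layer become reactive and make more intermediate filament protein. Retinal vessels consist of endothelium, a basement membrane rich in type IV collagen, and pericytes wrapped around it. None of these cell types is the target of the sort. In bulk libraries fewer cells of a type and less RNA per cell cannot be told apart, and several of the genes are made by more than one cell type: Apoe also by microglia, and Sox2 also by some amacrine cells.

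The libraries held 9734967 to 34511848 counts, with 15281 to 18504 genes detected. Retinal ganglion cell markers (15 genes) summed to 5482 to 12920 CPM (counts scaled to a common library size), whereas the 31 genes together made up 0.0671% to 0.179% of the counts. Ssrp1 mRNA was lower in SSRP1KO over the 5 times by a mean log2 change of -0.89 ± 0.10 (SE, edgeR adjusted p = 2.11e-06). By time it was called lower at 1dpc (-1.34 ± 0.23, 0.0203), 3dpc (-1.23 ± 0.23, 0.00896) and 4dpc (-0.85 ± 0.23, 0.0234). It was not called without crush (-0.28 ± 0.23, 0.522) or at 2dpc (-0.74 ± 0.23, 0.111). The library labelled SSRP1KO no crush replicate 3 had 66.9 CPM of Ssrp1, within the 61.0 to 67.9 CPM of uncrushed NT, and the library labelled NT 2dpc replicate 3 had 36.1 CPM, below the 39.0 to 45.4 CPM of SSRP1KO on that day. These labels were kept as given. In correlation with their own group, 3 libraries stood far apart: NT 2dpc replicate 3, SSRP1KO no crush replicate 3 and SSRP1KO 2dpc replicate 5. Results that depend on them are given with and without them.

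Upstream sequences are shown for a gene that rose after crush in both sgRNA groups (Rlbp1) and a gene that fell in both (S100b). They are also shown for a pericyte and an endothelial gene called higher in SSRP1KO over the 5 times (Rgs5 and Flt1). The Rgs5 call was kept in 37 of 37 alternative settings and the Flt1 call in 22 of 37. The choice of these genes has no bearing on the motifs. The sequences are the bases just before the annotated start, 5′ to 3′ on the gene's strand, from RefSeq on GRCm38.p6, with bases inside an annotated exon of the same gene left out. Capitals mark matches, on either strand, to the motifs searched: the AP-1 site TGANTCA, the cyclic AMP response element TGACGTCA, the C/EBP-ATF element TGATGNAA, the TATA box TATAAA and the CCAAT box CCAAT.
Rlbp1 (chr7:79387049-79387277, minus strand): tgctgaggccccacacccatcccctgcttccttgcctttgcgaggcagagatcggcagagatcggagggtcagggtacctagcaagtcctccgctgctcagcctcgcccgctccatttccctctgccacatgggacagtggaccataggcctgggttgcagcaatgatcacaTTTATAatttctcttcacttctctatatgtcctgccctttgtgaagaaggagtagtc
S100b (chr10:76253586-76253835, plus strand): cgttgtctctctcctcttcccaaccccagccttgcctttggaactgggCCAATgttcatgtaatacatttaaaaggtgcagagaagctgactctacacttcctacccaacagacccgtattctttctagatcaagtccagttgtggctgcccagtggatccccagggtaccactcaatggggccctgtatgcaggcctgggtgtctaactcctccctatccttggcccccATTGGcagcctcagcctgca
Rgs5 (chr1:169655251-169655500, plus strand): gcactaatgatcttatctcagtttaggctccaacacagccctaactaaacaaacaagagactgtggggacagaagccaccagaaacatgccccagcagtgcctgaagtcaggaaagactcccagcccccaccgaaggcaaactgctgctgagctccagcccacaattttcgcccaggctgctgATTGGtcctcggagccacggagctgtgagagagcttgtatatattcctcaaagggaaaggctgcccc
Flt1 (chr5:147726012-147726261, minus strand): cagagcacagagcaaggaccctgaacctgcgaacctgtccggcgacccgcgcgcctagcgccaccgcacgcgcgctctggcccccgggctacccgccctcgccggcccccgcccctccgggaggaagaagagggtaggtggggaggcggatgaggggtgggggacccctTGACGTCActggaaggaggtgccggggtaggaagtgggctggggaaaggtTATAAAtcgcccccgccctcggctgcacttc
The Flt1 sequence held the cyclic AMP response element 81 bases and a TATA box 31 bases before the start. The Rgs5 sequence held a CCAAT box on the minus strand 67 bases before the start, S100b held 2 CCAAT boxes and Rlbp1 a TATA box on the minus strand. Over all 32851 promoters of that length, 6.75% held the AP-1 site, 1.55% the cyclic AMP response element, 3.45% the C/EBP-ATF element, 12.4% the TATA box and 33.8% the CCAAT box. Of the genes in the set, 20 had a promoter entry, and Clu, Dkk3 and Vcam1 were among those without. A match is a run of letters, and no binding was measured.

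The glial genes spanned a wide range of levels. Dkk3, which encodes a secreted protein of the Dickkopf family, and Clu, which encodes the secreted chaperone clusterin, were highest per exon length, with means over the 30 libraries of 97.0 and 86.4 CPM per kb. Apoe, for the lipid carrier apolipoprotein E, followed with 49.8 CPM per kb, and Glul, for glutamine synthetase, with 42.3 CPM per kb. The next genes were lower: the intermediate filament gene Vim stood at 4.31 CPM per kb, the calcium-binding protein gene S100b at 4.07, the retinaldehyde-binding protein gene Rlbp1 at 3.14, and the type IV collagen genes Col4a2 and Col4a1 at 2.36 and 1.14. The remaining 22 genes lay below 1 CPM per kb. These included Aqp4 (0.887), the water channel of Müller glial endfeet, and Slc1a3 (0.578), the glutamate transporter GLAST.

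The endothelial and mural genes fell into 2 ranges. Kdr, Rgs5, Esam, Tagln, Tek and Flt1 had median levels of 3.64, 2.51, 2.47, 1.53, 1.43 and 1.40 CPM, above the limit of detection, since 3 counts correspond to 0.0839 to 0.333 CPM depending on depth. The other 9 had medians of 0 to 0.560 CPM. The junction genes Cdh5 (VE-cadherin) and Cldn5 (claudin 5) had counts in 9 and 6 of the 30 libraries, and the receptor gene Tie1 had counts in 2, both SSRP1KO. The proteoglycan gene Cspg4 (NG2), a pericyte marker, had counts in 9, the smooth muscle light chain gene Myl9 in 14 and the clotting factor gene Vwf in 16. Cldn5, Tie1 and Cspg4 did not pass the filter on low counts, and the other 28 genes were tested. The counting strand is not given in the sources used here, so genes that overlap others on the opposite strand carry counts that cannot be told apart: 62.4% of the exon length of Tagln overlaps the antisense gene Gm48529, and 11% of that of Aldh1l1 overlaps Gm15756. Exons of Col4a1 and Col4a2 share 22 bases.

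**Figure D1:**
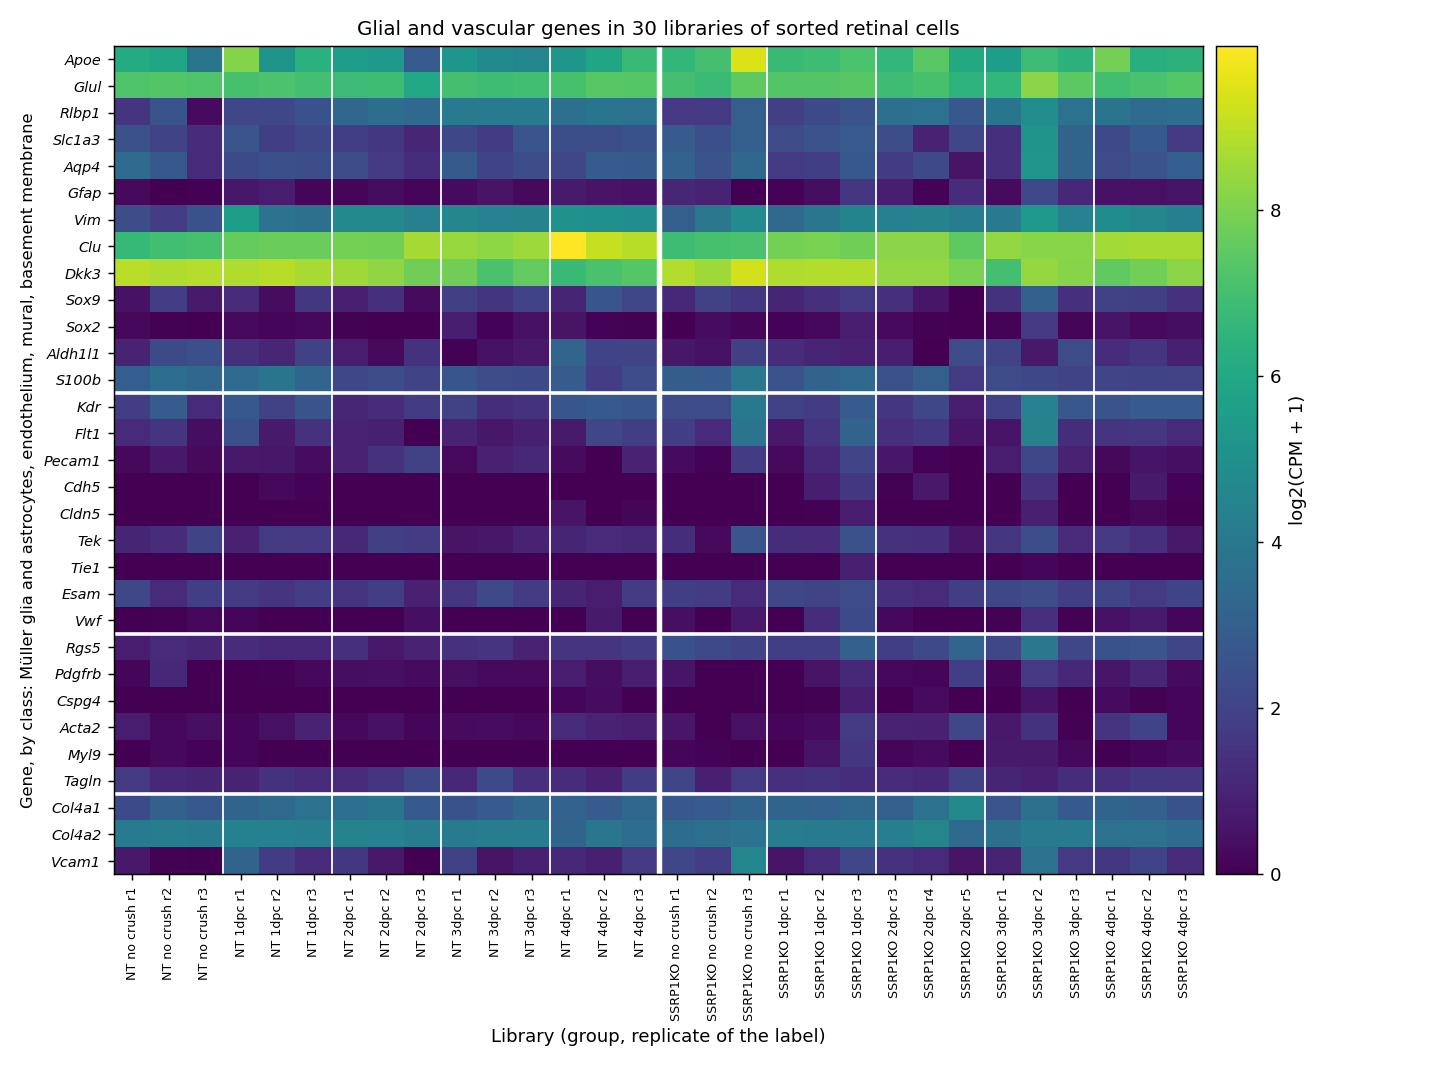
Level of each of the 31 genes (rows, grouped by class with white lines) in each of the 30 libraries (columns, NT left and SSRP1KO right, in order of time), as log2(CPM + 1) in colour. Clu, Dkk3, Glul and Apoe are bright throughout, the endothelial and mural rows are dark, and single columns such as SSRP1KO 3dpc replicate 2 are brighter in many rows at once.

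A few libraries held most of the highest values. SSRP1KO 3dpc replicate 2 was highest for 13 of the 31 genes, among them Slc1a3 (35.1 CPM, median over all libraries 4.07), Aqp4 (35.5, median 4.23), Kdr (20.5, median 3.64) and Flt1 (21.1, median 1.40). In the same library the rod and cone markers (15 genes) summed to 4369 CPM, against 170 to 1122 CPM in the other 29. SSRP1KO no crush replicate 3 was highest for 5 genes, including Apoe (694 CPM) and the adhesion molecule gene Vcam1 (23.3 CPM), and its microglia and macrophage markers (12 genes) summed to 578 CPM. SSRP1KO 1dpc replicate 3 was also highest for 5, including Cdh5 (2.07 CPM), Vwf (3.69 CPM) and Myl9 (1.99 CPM). SSRP1KO 2dpc replicate 5 was highest for 3, the pericyte receptor gene Pdgfrb (2.57 CPM), the smooth muscle actin gene Acta2 (3.42 CPM) and Col4a1 (25.1 CPM), and its red blood cell markers summed to 26.3 CPM against 0.246 to 6.16 in the others. These 4 libraries together held the highest value of 26 genes and all were SSRP1KO. They were picked by the values of these same genes. Leaving them out therefore tends to lower SSRP1KO by construction and is no independent check of a call. The share of these other cell types in the results was not tested.

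**Figure D2:**
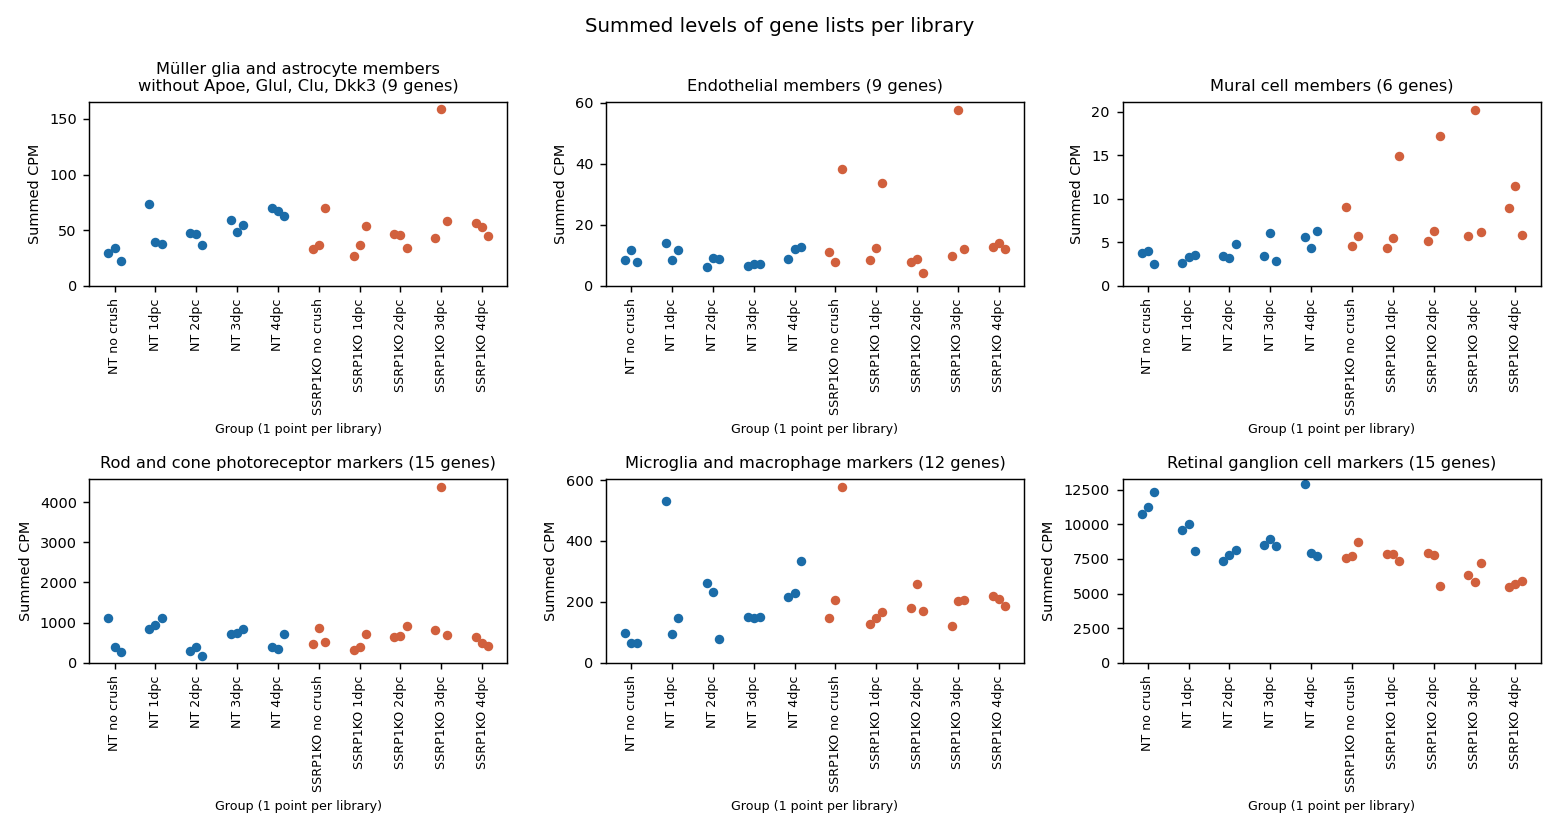
Summed CPM of 6 gene lists in each library (1 point per library, NT blue, SSRP1KO orange). The endothelial sum is 4.33 to 14.2 CPM except in 3 SSRP1KO libraries at 33.6, 38.4 and 57.7, and the photoreceptor sum is 4369 CPM in the library with the highest endothelial sum.

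After crush in NT cells, Vim, Clu and Rlbp1 rose and Dkk3 and S100b fell, all of them from the glial list. Markers of other cells moved on the same days. Over all genes tested, 1.38%, 9.47%, 11.9% and 14% were called higher at 1 to 4dpc and 0.475%, 9.35%, 12.2% and 13.2% lower. Retinal ganglion cell markers were called lower in 1, 9, 9 and 10 of 15 cases at 1 to 4dpc and higher in 0, 0, 1 and 3. Their sum was 10760 to 12340 CPM without crush, 7356 to 8152 at 2dpc, 8429 to 8931 at 3dpc and 7696 to 12920 at 4dpc. The microglial sum was 63.6 to 98.4 CPM without crush, 78.3 to 263 at 2dpc, 148 to 151 at 3dpc and 217 to 334 at 4dpc, with 1, 1 and 2 of 12 markers called higher on these days. The amacrine and horizontal cell sum was 620 to 895 CPM without crush, 548 to 822 at 2dpc, 396 to 518 at 3dpc and 447 to 569 at 4dpc. Of the 9 markers of these cells tested, 1 was called higher and 2 lower at 2dpc, and 1 and 3 at 3dpc. The part of any of these cells in the changes of the glial genes was not tested.

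Vim, which marks Müller glia and is raised in reactive glia, stood at 4.30, 2.51 and 4.73 CPM without crush. Its 1dpc values were 47.3, 12.8 and 11.9 CPM, a log2 change of 2.64 ± 0.46 (SE, edgeR adjusted p = 0.000738). It was the only one of the 28 genes called at 1dpc, where 1.86% of all 16621 genes tested were called, 1.38% higher and 0.475% lower. Each 1dpc library lay above all 3 uncrushed ones. Replicate 1, the highest, also had the highest microglial sum of its group (533 CPM against 93.2 and 147), and without it the change was 1.68 ± 0.39 (edgeR adjusted p = 0.0259). The part of microglia in the Vim change was not tested. With a sex score (Xist against Y-linked genes) as covariate the 1dpc change was 2.20 ± 0.58 and not called (0.0673). Later values of Vim were 26.7, 24.7 and 19.2 CPM at 2dpc, 23.9, 20.3 and 21.2 at 3dpc, and 33.6, 31.4 and 28.5 at 4dpc. The log2 changes from no crush were 2.62 ± 0.46 (edgeR adjusted p = 0.00011), 2.50 ± 0.45 (0.000108) and 3.02 ± 0.46 (8.59e-06), and none of these libraries overlapped the uncrushed ones.

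Clu rose step by step. Its NT values were 101, 124 and 134 CPM without crush, 196, 208 and 207 at 1dpc, 234, 229 and 402 at 2dpc, 350, 314 and 362 at 3dpc and 1010, 555 and 476 at 4dpc. Every crushed library lay above every uncrushed one. The log2 change was 0.77 ± 0.22 at 1dpc, short of the threshold (edgeR adjusted p = 0.0642), 1.27 ± 0.22 at 2dpc (9.39e-05), 1.52 ± 0.22 at 3dpc (4.64e-06) and 2.51 ± 0.23 at 4dpc (1.12e-09). Clusterin is also a secreted stress protein of neurons. The highest library, NT 4dpc replicate 1, and the highest of the 2dpc group, NT 2dpc replicate 3, were also the 2 shallowest of all, with 10909655 and 9734967 counts.

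Rlbp1, made in the retina by Müller glia and the pigment epithelium, rose from 2dpc. It had 1.90, 5.06 and 0.220 CPM without crush and 3.31, 3.46 and 4.67 at 1dpc, within that range. It reached 9.0, 11.3 and 9.76 CPM at 2dpc, 16.7, 16.3 and 16.6 at 3dpc and 11.8, 13.9 and 12.3 at 4dpc, all above the uncrushed libraries. The log2 changes were 2.07 ± 0.55 (edgeR adjusted p = 0.00837), 2.79 ± 0.56 (0.00038) and 2.40 ± 0.56 (0.00146). Fitted on the compared libraries alone, the 2dpc change was 2.07 ± 0.81 and not called (0.129).

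Dkk3, the most abundant gene of the set, fell. Its values were 488, 448 and 461 CPM without crush and 443, 478 and 405 at 1dpc, where the groups overlapped. It was 373, 320 and 225 CPM at 2dpc, a log2 change of -0.60 ± 0.25, short of the threshold (edgeR adjusted p = 0.0895). Levels at 3dpc were 222, 138 and 193 CPM (-1.34 ± 0.25, edgeR adjusted p = 0.000165) and at 4dpc 107, 139 and 163 CPM (-1.78 ± 0.26, 3.07e-06). The fall at 3dpc and 4dpc was called under each of the 15 alternative settings.

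S100b, expressed in retinal astrocytes and Müller glia, also fell. It had 6.80, 11.1 and 9.39 CPM without crush and 10.2, 13.7 and 8.49 at 1dpc. At 2dpc it was 3.40, 4.18 and 3.11 CPM (log2 change -1.35 ± 0.40, edgeR adjusted p = 0.0175), at 3dpc 5.45, 3.84 and 3.74 CPM (-1.07 ± 0.39, 0.0471) and at 4dpc 6.52, 2.50 and 3.90 CPM (-1.11 ± 0.40, 0.0379). From 2dpc each crushed library lay below each uncrushed one, but the calls were close to the threshold. At 2dpc the call was lost without NT 2dpc replicate 1 or 3 or NT no crush replicate 2 (edgeR adjusted p 0.0535 to 0.077). At 3dpc it was lost without any 1 of the 3dpc libraries or NT no crush replicate 2 or 3 (0.0513 to 0.167), and at 4dpc without NT 4dpc replicate 2 or 3 or NT no crush replicate 2 or 3 (0.0815 to 0.19). The sex score also ended the calls at 3dpc (0.11) and 4dpc (0.295), no filter on low counts that at 3dpc (0.0572) and the compared libraries alone that at 4dpc (0.0652).

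Aldh1l1, a folate enzyme gene that marks astrocytes, was called at 3dpc alone: it fell from 0.950, 3.72 and 4.44 CPM to 0.0389, 0.364 and 0.623 CPM (log2 change -3.14 ± 1.11, edgeR adjusted p = 0.0387). The 4dpc values were 8.45, 3.05 and 3.10 CPM, overlapping the uncrushed group. The call was lost without NT 3dpc replicate 1 or 2 or NT no crush replicate 2 or 3 (0.0823 to 0.149), or with the sex score (0.0572).

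The NT counts were thus 4 of 28 genes at 2dpc, 6 at 3dpc and 5 at 4dpc, against 18.8%, 24.2% and 27.2% of all genes tested. Of all genes, 9.47% were called higher and 9.35% lower at 2dpc, 11.9% and 12.2% at 3dpc, and 14% and 13.2% at 4dpc, beside 3 higher and 1 lower, 3 and 3, and 3 and 2 in the set. As shares of the tested genes of the set these were 14.3%, 21.4% and 17.9%, each below the background. The median log2 change of the 28 genes was -0.36 at 2dpc, 0.01 at 3dpc and 0.52 at 4dpc. For all genes tested it was 0.05, 0.002 and 0.07. The other glial genes did not follow Rlbp1 or S100b to a call. Glul stayed within 60.9 to 167 CPM over the 15 NT libraries, Slc1a3 within 1.11 to 5.21 and Aqp4 within 1.28 to 10.2. Their log2 changes at 4dpc were 0.01 ± 0.25, 0.53 ± 0.65 and -0.11 ± 0.71. Gfap, the filament gene that reactive glia raise, did not exceed 0.700 CPM in any NT library, and its change at 4dpc was 2.63 ± 1.37 (edgeR adjusted p = 0.162).

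**Figure D3:**
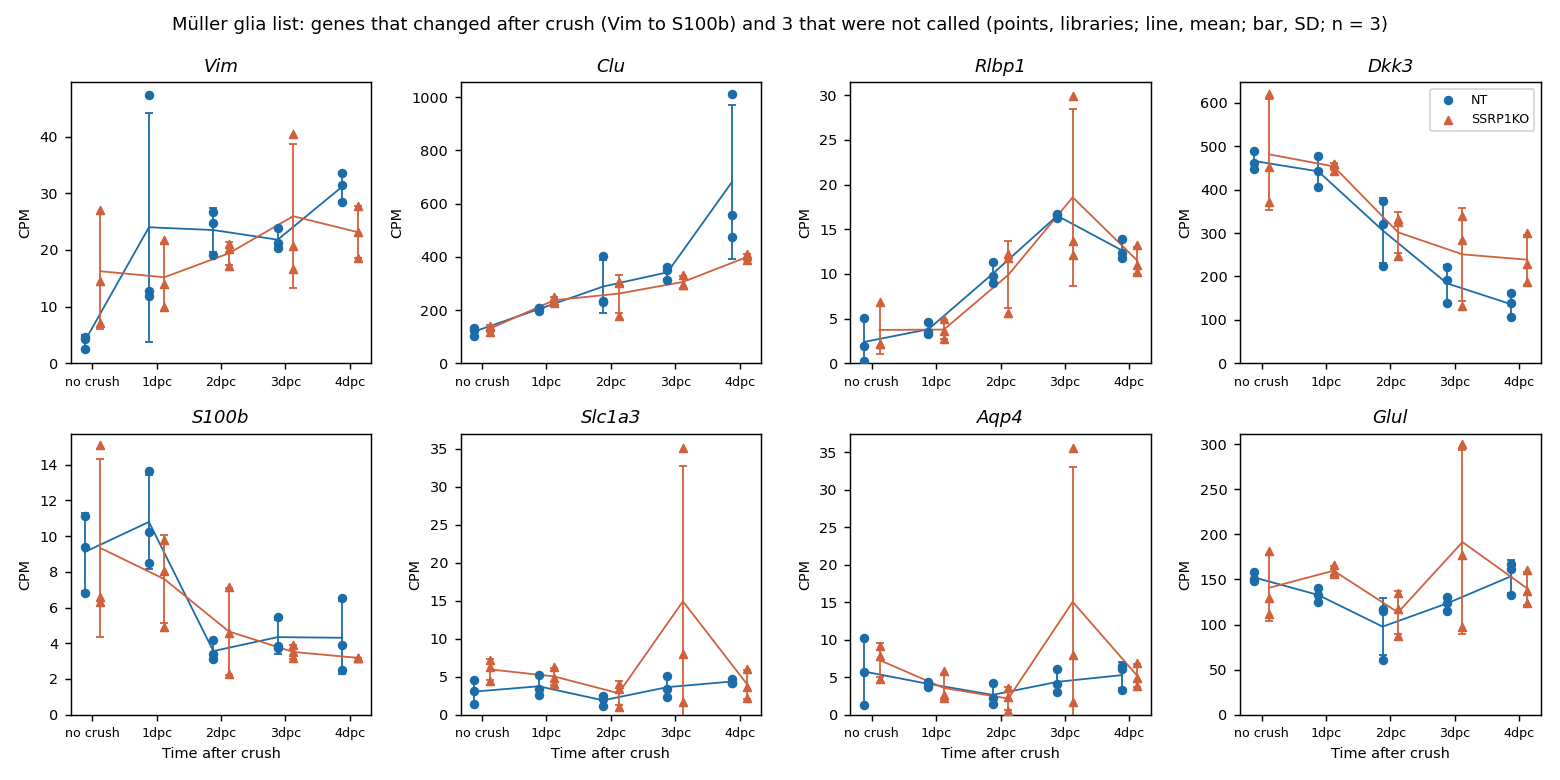
CPM of 8 glial genes in each library (points), with the group mean (line) and SD (bar, cut at 0; n = 3), by time after crush for NT (blue circles) and SSRP1KO (orange triangles). Vim, Clu and Rlbp1 climb and Dkk3 and S100b decline in NT, while Slc1a3, Aqp4 and Glul were not called and are highest in SSRP1KO 3dpc replicate 2.

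No endothelial, mural or basement membrane gene of the set was called after crush in either sgRNA group, in 8 comparisons. Kdr, the main VEGF receptor of endothelium, stood at 2.50, 6.48 and 1.36 CPM without crush in NT. It was 5.73, 2.88 and 5.00 CPM at 1dpc, 1.08, 1.39 and 2.33 at 2dpc, 2.96, 1.5 and 1.79 at 3dpc and 5.35, 6.0 and 5.41 at 4dpc, so each day overlapped the uncrushed group. In SSRP1KO Kdr had 3.96, 4.00 and 15.5 CPM without crush, 2.77, 2.45 and 6.50 at 1dpc, 1.98, 3.33 and 0.741 at 2dpc, 2.93, 20.5 and 5.55 at 3dpc and 5.07, 6.36 and 6.50 at 4dpc. There too every day overlapped the uncrushed group or, at 2dpc, lay below it without a call (log2 change -1.92 ± 0.65, edgeR adjusted p = 0.0527). Tagln, a smooth muscle actin-binding protein gene, had 2.20, 1.17 and 1.03 CPM without crush, 0.947, 1.77 and 1.26 at 1dpc, 1.33, 1.88 and 3.44 at 2dpc, 1.17, 3.76 and 1.56 at 3dpc and 1.5, 0.902 and 2.30 at 4dpc in NT. In SSRP1KO it had 3.24, 0.861 and 2.28 CPM without crush, 1.56, 1.73 and 1.47 at 1dpc, 1.36, 1.20 and 2.85 at 2dpc, 1.03, 0.818 and 1.5 at 3dpc and 1.56, 2.04 and 1.96 at 4dpc. The libraries of all groups intermixed, with log2 changes no larger than 0.95 in size in any of 14 comparisons.

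The collagen genes encode the 2 chains that form the main vessel collagen IV. Col4a2 had 16.7, 17.9 and 16.1 CPM in uncrushed NT, 19.7, 20.2 and 18.5 at 1dpc, 21.2, 20.6 and 17.1 at 2dpc, 16.7, 17.4 and 17.4 at 3dpc and 8.34, 14.3 and 11 at 4dpc. The 4dpc libraries were all below the uncrushed ones, but the log2 change of -0.58 ± 0.23 missed the threshold (edgeR adjusted p = 0.0606). In SSRP1KO Col4a2 had 10.6, 11.9 and 13 CPM without crush, 17.8, 16.6 and 16.7 at 1dpc, 18.2, 22.3 and 9.64 at 2dpc, 12, 15.7 and 17.0 at 3dpc and 12.5, 12.3 and 10.3 at 4dpc, with no call.

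Col4a1 in NT had 3.70, 7.37 and 5.72 CPM without crush, 8.05, 10.1 and 12.2 at 1dpc, 11.4, 13.7 and 6.10 at 2dpc, 4.79, 6.26 and 8.72 at 3dpc and 7.81, 6.35 and 9.13 at 4dpc. In SSRP1KO it had 5.58, 6.58 and 8.15 CPM without crush, 8.24, 7.72 and 9.33 at 1dpc, 7.08, 12.3 and 25.1 at 2dpc, 5.19, 11.9 and 6.12 at 3dpc and 8.26, 7.34 and 4.79 at 4dpc. Its largest change after crush was 1.13 ± 0.39 at 2dpc in SSRP1KO (edgeR adjusted p = 0.0573), where replicate 5 alone held the 25.1 CPM and replicates 3 and 4 had 7.08 and 12.3 CPM.

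In SSRP1KO cells Clu and Rlbp1 rose and Dkk3 and S100b fell after crush, and Vim was not called. Clu was the only gene called at 1dpc (4.04% of all genes tested were called, 3.03% higher and 1.01% lower) and at 2dpc (11.7%, with 7.64% higher and 4.03% lower). It stood at 116, 135 and 139 CPM without crush, 235, 250 and 227 at 1dpc, 305, 301 and 179 at 2dpc, 331, 294 and 293 at 3dpc and 388, 409 and 403 at 4dpc. All crushed libraries lay above all uncrushed ones. The log2 changes were 0.87 ± 0.22 (edgeR adjusted p = 0.0198), 1.01 ± 0.22 (0.00224), 1.23 ± 0.22 (0.000184) and 1.62 ± 0.22 (5.35e-06). The call at 1dpc was lost without SSRP1KO 1dpc replicate 1 or 2 or SSRP1KO no crush replicate 1 or 2 (0.0501 to 0.0825), or with the sex score (0.0724), and that at 2dpc with the compared libraries alone (0.0714).

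At 3dpc and 4dpc the same 4 genes were called in SSRP1KO, Clu, Rlbp1, Dkk3 and S100b, or 14.3% of the genes tested against backgrounds of 14.5% and 13.1%. All genes split into 8.77% higher and 5.75% lower at 3dpc and 6.88% higher and 6.2% lower at 4dpc, and the set into 2 and 2 on both days. At 3dpc 10 of 15 rod and cone markers were called higher (median log2 change 1.73), with sums of 687 to 4369 CPM against 459 to 856 without crush. Bipolar markers had a median change of 2.01 with 0 of 9 called, and their sum was 209, 211 and 466 CPM, against 228 to 242 without crush. Ganglion cell markers were called lower in 6 of 15 cases and higher in 1 at 3dpc and again at 4dpc, with sums of 5826 to 7182 and 5482 to 5906 CPM against 7594 to 8721. The part of these cells in the glial changes was not tested.

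Rlbp1 in SSRP1KO went from 2.2, 2.22 and 6.83 CPM to 13.7, 29.9 and 12.1 at 3dpc (log2 change 2.32 ± 0.55, edgeR adjusted p = 0.00395) and 13.2, 10.3 and 11.1 at 4dpc (1.63 ± 0.54, 0.0439). At 1dpc it was 2.73, 3.67 and 4.93 CPM and at 2dpc 11.8, 12.3 and 5.59. The call at 4dpc was lost without any 1 of the 3 libraries of that day or SSRP1KO no crush replicate 1 or 2 (0.0731 to 0.166).

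Dkk3 went from 451, 371 and 621 CPM to 132, 338 and 283 at 3dpc (log2 change -0.94 ± 0.25, edgeR adjusted p = 0.00956) and 187, 228 and 301 at 4dpc (-1.01 ± 0.25, 0.00554), after 443, 459 and 458 at 1dpc and 332, 326 and 247 at 2dpc. Its call at 3dpc was lost without SSRP1KO 3dpc replicate 1 (0.0845) or no crush replicate 3 (0.0824) and with the compared libraries alone (0.0797), and at 4dpc without SSRP1KO 4dpc replicate 1 (0.053) or no crush replicate 3 (0.0575). S100b went from 6.60, 6.34 and 15.1 CPM to 3.89, 3.49 and 3.16 at 3dpc (-1.41 ± 0.40, edgeR adjusted p = 0.015) and 3.19, 3.18 and 3.18 at 4dpc (-1.55 ± 0.40, 0.0079), after 4.93, 8.06 and 9.78 at 1dpc and 4.55, 7.16 and 2.28 at 2dpc. Without SSRP1KO no crush replicate 3 neither S100b call was kept (-0.88, adjusted p = 0.175, and -1.02, 0.114), and that at 3dpc was also lost without SSRP1KO 3dpc replicate 3 (0.0653), with the compared libraries alone (0.0639) and without the 3 libraries that stood apart (0.0804). Without the 4 SSRP1KO libraries that were highest for most genes of the set, neither was called (0.155 and 0.0562).

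Vim in SSRP1KO stood at 7.11, 14.5 and 27.1 CPM without crush, already above NT. It was 9.87, 14.0 and 21.7 CPM at 1dpc, 20.1, 21.0 and 17.1 at 2dpc, 16.7, 40.5 and 20.8 at 3dpc and 27.7, 23.2 and 18.6 at 4dpc. No day passed the test, with log2 changes from -0.09 ± 0.42 to 0.68 ± 0.42. Aldh1l1 was 0.554, 0.369 and 2.70 CPM without crush and 0 to 3.89 CPM after it, also with no call.

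The difference between the crush responses of the 2 sgRNA groups was tested directly, as the 4 differences together. No gene of the set passed with edgeR (0.728% of all genes tested did). Vim came nearest: its response was smaller in SSRP1KO at each day, with SSRP1KO minus NT at -2.73, -2.35, -1.82 and -2.50 log2 units at 1 to 4dpc (edgeR adjusted p = 0.0863). DESeq2 called 1 gene, Vim (adjusted p = 0.00248), as did edgeR with no filter on low counts (0.0401) and edgeR without NT 1dpc replicate 1 (0.0494) or without SSRP1KO no crush replicate 1 (0.0369). Without the 3 libraries that stood apart, edgeR called Clu (0.0213). All these differences use the uncrushed groups, in which Vim itself differed.

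Between uncrushed cells Apoe, Vcam1 and Vim were higher in SSRP1KO, 3 of the 28 genes tested against 3.91% of all genes (1.44% higher and 2.47% lower). Ssrp1 itself was not called lower in this comparison (log2 difference -0.28 ± 0.23, edgeR adjusted p = 0.522). Vim stood at 4.30, 2.51 and 4.73 CPM in NT against the SSRP1KO values given above, with no overlap, and the log2 difference was 2.07 ± 0.45 (edgeR adjusted p = 0.011). Apoe was 69.5, 59.2 and 13.5 CPM in NT and 97.6, 132 and 694 CPM in SSRP1KO (2.70 ± 0.74, 0.0348). Vcam1, which endothelium and glia raise in inflammation, was 0.600, 0.0405 and 0 CPM in NT and 3.41, 2.52 and 23.3 CPM in SSRP1KO (5.58 ± 1.31, 0.0181). For each gene the groups did not overlap, and the library labelled SSRP1KO no crush replicate 3 was the highest, by the widest margin for Apoe and Vcam1.

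Without that library the differences were 1.27 ± 0.68 for Apoe (edgeR adjusted p = 0.276) and 3.86 ± 1.25 for Vcam1 (0.059), and Vim was still called. The Apoe call was also lost without NT no crush replicate 1, 2 or 3 (0.0586 to 0.15), the Vcam1 call without NT no crush replicate 2 or 3 (0.086 and 0.0867), and the Vim call without NT no crush replicate 2 (0.0685). None of the 3 genes was called when the compared libraries were fitted alone (Apoe 0.15, Vcam1 0.116, Vim 2.13 ± 0.48 at 0.116) or with the sex score (0.265, 0.361, and 1.55 ± 0.63 at 0.281). Without the 3 libraries that stood apart Apoe was 1.28 ± 0.60 (0.162), and without the 4 highest for the set 1.28 ± 0.69 (0.251). Microglia and macrophage markers moved the same way: 4 of 12 were called higher, beside 1.44% of all genes. Their sum was 63.6 to 98.4 CPM in NT and 148, 206 and 578 CPM in SSRP1KO. The part of microglia and macrophages in the Apoe and Vcam1 differences was not tested.

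At 1dpc and 2dpc edgeR called no gene of the set between SSRP1KO and NT, where 0.018% and 0.0842% of all genes were called. These were 0.00602% higher and 0.012% lower at 1dpc and 0.0722% higher and 0.012% lower at 2dpc. DESeq2 called 0 genes of the set at 1dpc and 1 at 2dpc, beside 0.175% and 3.92% of all genes with an adjusted p. At 3dpc Rgs5 was called (1 of 28 against 1.11% of all genes, 0.752% higher and 0.355% lower), and at 4dpc Clu was lower and Dkk3 higher in SSRP1KO (2 of 28 against 6.91% of all genes, 2.74% higher and 4.17% lower). The 4dpc values of Clu were 1010, 555 and 476 CPM in NT against 388, 409 and 403 in SSRP1KO, without overlap (log2 difference -0.77 ± 0.22, edgeR adjusted p = 0.0296). Those of Dkk3 were 107, 139 and 163 CPM against 187, 228 and 301, also without overlap (0.81 ± 0.25, 0.0456). Both calls were fragile. The Clu difference was -0.33 ± 0.20 without NT 4dpc replicate 1 (0.447), and its call was also lost without any 1 of the SSRP1KO 4dpc libraries (0.084 to 0.104) or with the compared libraries alone (0.118). The Dkk3 call was lost without NT 4dpc replicate 1 (0.182) or 2 (0.0956) or any 1 of the SSRP1KO 4dpc libraries (0.0513 to 0.248), with the sex score (0.0575), or without the 6 libraries least like their groups (0.0689).

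On the mean of the 5 times, 7 of the 28 genes were higher in SSRP1KO and none was lower: Rgs5, Myl9, Apoe, Gfap, Vwf, Flt1 and Vcam1. This was 25% of the genes tested, against 19.8% called in either direction over all genes of which 9.64% were higher and 10.2% lower. The median log2 difference of the 28 was 0.40 against 0.02 for all genes, and 23 of the 28 were above 0. Myl9, Vwf and Cdh5 had 8, 29 and 6 counts in NT and did not exceed 0.162, 0.659 and 0.165 CPM there. They entered the test mainly through SSRP1KO libraries and could hardly be called lower. The figures for the 28 genes include them.

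Rgs5, a regulator of G protein signalling and a marker of pericytes, separated the sgRNA groups at every time. In NT it stood at 0.750, 1.26 and 1.10 CPM without crush, 1.42, 1.15 and 1.14 at 1dpc, 1.59, 0.614 and 0.998 at 2dpc, 1.71, 1.90 and 0.973 at 3dpc and 1.93, 1.94 and 2.39 at 4dpc. In SSRP1KO it stood at 4.77, 3.63 and 3.12 CPM without crush, 2.63, 2.66 and 7.30 at 1dpc, 2.64, 3.64 and 8.44 at 2dpc, 3.33, 14.4 and 3.38 at 3dpc and 4.69, 5.18 and 3.22 at 4dpc. All 15 SSRP1KO libraries lay above all 15 NT libraries. Such a separation was found in 4 of the 16621 genes tested (0.0241%), with Rgs5 and Gm10432 higher (0.012%) and Add2 and Rbfox1 lower (0.012%) in SSRP1KO.

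The mean log2 difference of Rgs5 was 1.82 ± 0.25 (edgeR adjusted p = 1.45e-05), and it was called in each of 37 alternative settings, with a log2 difference of 1.37 to 1.91 and an adjusted p of at most 0.000207. Without the 4 SSRP1KO libraries that were highest for most genes of the set it was still called. By day the difference was 1.88 without crush (edgeR adjusted p = 0.0545), 1.76 at 1dpc (0.597), 2.18 at 2dpc (0.0795), 2.20 ± 0.56 at 3dpc (0.0456) and 1.06 at 4dpc (0.277). The call at 3dpc was lost without any 1 of the NT 3dpc libraries (0.148 to 0.209) or SSRP1KO 3dpc replicate 2 (1.13, 0.473), without the 4 libraries (1.13 ± 0.43, 0.203), with the compared libraries alone (0.0629) or with the sex score (0.136). The change of Rgs5 between no crush and any day was not called in either sgRNA group. On the mean of the 5 times Myl9 was the only other mural gene of the set called. Pdgfrb, Cspg4 and Acta2 were at 0 CPM in SSRP1KO no crush replicate 2, beside 3.63 CPM of Rgs5. They were at 2.20, 0.474 and 1.72 CPM in SSRP1KO 3dpc replicate 2, beside 14.4 CPM of Rgs5. Which cells made the Rgs5 RNA was not tested.

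**Figure D4:**
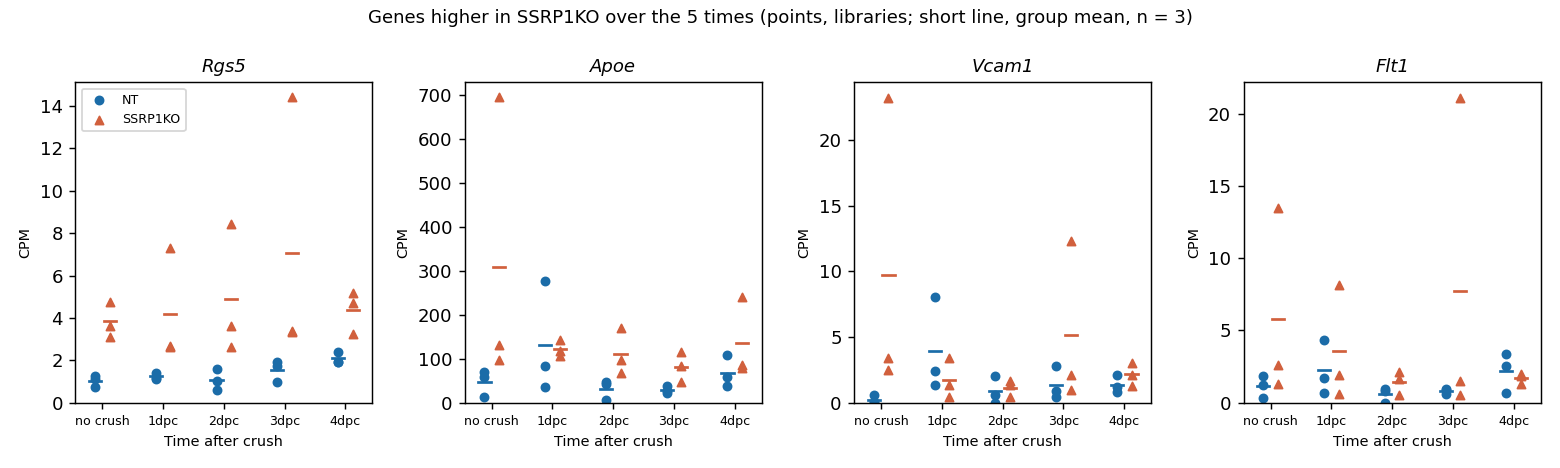
CPM of Rgs5, Apoe, Vcam1 and Flt1 in each library (points, NT blue circles, SSRP1KO orange triangles; short line, group mean of 3) by time after crush. For Rgs5 the lowest SSRP1KO library (2.63 CPM) is above the highest NT library (2.39 CPM), while the Vcam1 and Flt1 means are pulled up by single libraries.

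Apoe was higher in SSRP1KO over the 5 times by 1.38 ± 0.32 on the log2 scale (edgeR adjusted p = 0.00278). After crush its NT values were 276, 35 and 83.0 CPM at 1dpc, 46.4, 41.5 and 6.54 at 2dpc, 36.7, 26.4 and 22.8 at 3dpc and 37.3, 57.9 and 108 at 4dpc. In SSRP1KO they were 107, 117 and 143 CPM at 1dpc, 97.4, 170 and 66.4 at 2dpc, 47.5, 114 and 83.3 at 3dpc and 240, 78.5 and 85.4 at 4dpc. The groups did not overlap at 2dpc and 3dpc and overlapped at 1dpc, where NT replicate 1 was the highest, and at 4dpc. The call held in each of the 37 alternatives (log2 difference 1.06 to 1.61, adjusted p at most 0.0159). Of the microglia and macrophage markers 2 of 12 were called higher on the same average, beside 9.64% of all genes. The part of microglia and macrophages in the Apoe difference was not tested.

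Flt1, the VEGF receptor 1 gene, was higher by 1.41 ± 0.48 (edgeR adjusted p = 0.0371), on a few libraries. In NT it had 1.25, 1.82 and 0.293 CPM without crush, 4.36, 0.659 and 1.72 at 1dpc, 0.947, 0.819 and 0 at 2dpc, 0.973, 0.566 and 0.857 at 3dpc and 0.642, 3.37 and 2.57 at 4dpc. In SSRP1KO it had 2.60, 1.29 and 13.5 CPM without crush, 0.604, 1.94 and 8.16 at 1dpc, 1.63, 2.10 and 0.513 at 2dpc, 0.499, 21.1 and 1.5 at 3dpc and 1.84, 1.96 and 1.29 at 4dpc. The medians were 0.947 and 1.85 CPM, and the groups overlapped widely. The 3 highest libraries were SSRP1KO 3dpc replicate 2 (21.1 CPM), no crush replicate 3 (13.5 CPM) and 1dpc replicate 3 (8.16 CPM). Without the 4 libraries that were highest for most genes of the set, the difference was 0.29 ± 0.38 (0.663), without the 3 that stood apart 1.08 ± 0.45 (0.0857), and without SSRP1KO 3dpc replicate 2 alone it was 0.82 ± 0.43 (0.189). The call was also lost without any 1 of NT no crush replicate 3, NT 1dpc replicate 2 or 3, NT 3dpc replicate 2, NT 4dpc replicate 1, SSRP1KO no crush replicate 3, SSRP1KO 1dpc replicate 3, SSRP1KO 2dpc replicate 4 or SSRP1KO 4dpc replicate 1 or 2 (0.0525 to 0.105), and with the sex score (0.13).

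Vcam1 was higher by 1.44 ± 0.49 on average (edgeR adjusted p = 0.0369). After crush NT had 8.05, 2.39 and 1.35 CPM at 1dpc, 2.07, 0.614 and 0 at 2dpc, 2.80, 0.445 and 0.857 at 3dpc and 1.18, 0.833 and 2.13 at 4dpc. SSRP1KO had 0.462, 1.31 and 3.38 CPM at 1dpc, 1.67, 1.31 and 0.456 at 2dpc, 0.998, 12.3 and 2.14 at 3dpc and 2.10, 3.06 and 1.29 at 4dpc, overlapping NT on each of these days. Without the 4 libraries highest for the set the difference was 0.64 ± 0.46 (0.363), and without the 3 that stood apart 1.08 ± 0.45 (0.0832). The call was lost without any 1 of NT no crush replicate 2 or 3, NT 1dpc replicate 2 or 3, NT 2dpc replicate 2, NT 3dpc replicate 2 or 3, NT 4dpc replicate 2, SSRP1KO no crush replicate 3, SSRP1KO 1dpc replicate 3, SSRP1KO 2dpc replicate 3, SSRP1KO 3dpc replicate 2 or SSRP1KO 4dpc replicate 2 (0.0523 to 0.107), and with the sex score (0.104).

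Gfap was higher by 1.67 ± 0.56 (edgeR adjusted p = 0.0333) at very low levels. NT had 0.200, 0 and 0.0367 CPM without crush, 0.568, 0.700 and 0.126 at 1dpc, 0.0861, 0.246 and 0.111 at 2dpc, 0.234, 0.445 and 0.195 at 3dpc and 0.642, 0.451 and 0.399 at 4dpc. SSRP1KO had 1.11, 0.923 and 0 CPM without crush, 0.0710, 0.295 and 1.96 at 1dpc, 0.778, 0.0559 and 1.43 at 2dpc, 0.233, 3.62 and 1.18 at 3dpc and 0.406, 0.367 and 0.490 at 4dpc. The medians were 0.234 and 0.490 CPM. Of the SSRP1KO libraries 7 lay above all NT libraries, the highest being SSRP1KO 3dpc replicate 2 (3.62 CPM) and 1dpc replicate 3 (1.96 CPM). Without the 4 libraries highest for the set the difference was 0.96 ± 0.49 (0.184). The call was lost without any 1 of NT no crush replicate 2 or 3, NT 1dpc replicate 3, NT 2dpc replicate 1, NT 3dpc replicate 1 or 3, SSRP1KO no crush replicate 1, SSRP1KO 1dpc replicate 3, SSRP1KO 2dpc replicate 5 or SSRP1KO 3dpc replicate 2 (0.0513 to 0.118), and with the sex score (0.0607).

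Myl9 and Vwf were near 0. Myl9 had 8 counts in 3 of the 15 NT libraries and 127 counts in 11 of the 15 SSRP1KO libraries. Its NT values were 0, 0.162 and 0.0734 CPM without crush, 0.0947, 0 and 0 at 1dpc and 0 from 2dpc on. In SSRP1KO it had 0.0852, 0.0615 and 0 CPM without crush, 0, 0.464 and 1.99 at 1dpc, 0.117, 0.224 and 0 at 2dpc, 0.665, 0.646 and 0.159 at 3dpc and 0, 0.122 and 0.210 at 4dpc. The fitted log2 difference of 3.91 ± 0.94 (edgeR adjusted p = 0.00522) averages over groups at 0, so its size and SE depend on the prior count, while the call was made in each of the 37 alternatives.

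Vwf had 29 counts in 5 NT libraries and 227 counts in 11 SSRP1KO libraries. NT had 0, 0.0405 and 0.147 CPM without crush, 0.0947, 0 and 0 at 1dpc, 0, 0 and 0.333 at 2dpc, 0, 0 and 0 at 3dpc and 0, 0.659 and 0 at 4dpc. SSRP1KO had 0.341, 0 and 0.599 CPM without crush, 0, 1.5 and 3.69 at 1dpc, 0.155, 0 and 0 at 2dpc, 0.0333, 1.64 and 0.0319 at 3dpc and 0.406, 0.652 and 0.105 at 4dpc. The 3 libraries above all of NT were SSRP1KO 1dpc replicates 2 and 3 and SSRP1KO 3dpc replicate 2. The fitted difference of 2.94 ± 0.95 (edgeR adjusted p = 0.0296) also averages over a group at 0. It was not called without SSRP1KO 1dpc replicate 3 (0.0571) or SSRP1KO 3dpc replicate 2 (0.116), and without the 4 libraries highest for the set it was 1.85 ± 0.98 (0.202). Without SSRP1KO 2dpc replicate 3 that group had no count left and the test gave an adjusted p of 1.

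**Figure D5:**
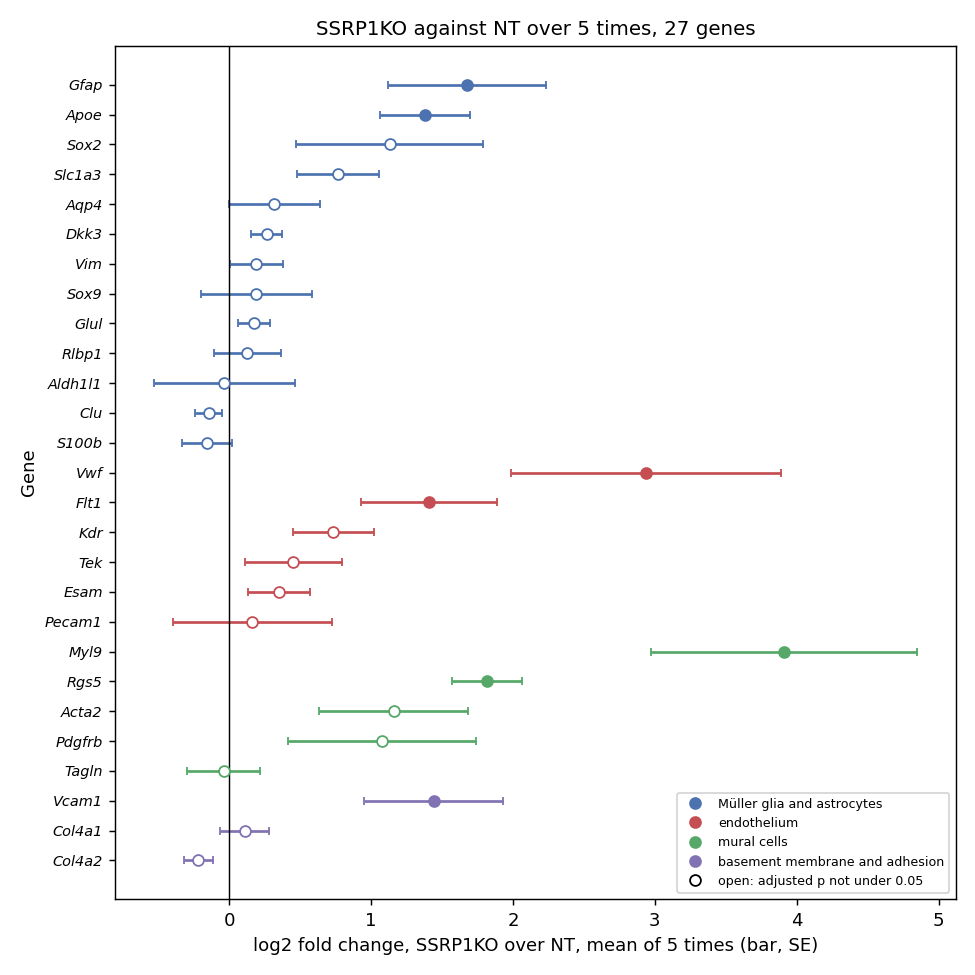
Mean log2 difference of SSRP1KO over NT across the 5 times with its SE (bars) for 27 of the 28 tested genes, coloured by class, filled where called. Cdh5 is not drawn because its groups at 0 give no finite error. Most points lie right of 0, and Rgs5 has the narrowest bar among the vascular genes called.

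The remaining tested genes were called in none of the 15 comparisons. Among glial genes Sox9 ranged from 0 to 7.67 CPM (counts in 29 libraries, log2 changes -1.51 to 1.49) and Sox2, also a glial transcription factor gene, from 0 to 2.20 CPM (25 libraries, -1.54 to 2.70). Slc1a3 ranged from 1.01 to 35.1 CPM (-1.09 to 2.04), Aqp4 from 0.456 to 35.5 (-1.73 to 1.78) and Glul from 60.9 to 300 (-0.64 to 0.63). Among endothelial genes Kdr spanned log2 changes of -1.92 to 2.21. The adhesion gene Pecam1 ranged from 0 to 3.40 CPM (28 libraries, -3.14 to 2.52), the angiopoietin receptor gene Tek from 0.185 to 5.21 (-1.51 to 1.93) and the junction gene Esam from 0.728 to 4.09 (-0.79 to 1.03). Among mural genes Pdgfrb ranged from 0 to 2.57 CPM (25 libraries, -2.55 to 2.81) and Acta2 from 0 to 3.42 (29 libraries, -0.89 to 2.80). Of the mean differences between SSRP1KO and NT, those of Slc1a3 (0.77 ± 0.29, edgeR adjusted p = 0.0589) and Kdr (0.73 ± 0.29, 0.0689) came nearest to the threshold. Cdh5 had 6 counts in 2 NT libraries and 154 counts in 7 SSRP1KO libraries, Cldn5 had 6 and 44, Cspg4 8 and 52, and Tie1 had none in NT and 24 in SSRP1KO. Most of the SSRP1KO counts lay in few libraries. SSRP1KO 1dpc replicate 3 held 55 counts of Cdh5, 19 of Cldn5, 21 of Cspg4 and 22 of Tie1. SSRP1KO 3dpc replicate 2 held 39, 20, 11 and 2. Such pooled counts are no test of a difference between the sgRNA groups.

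Related genes outside the set were counted in the same fit, to be read against 14% of all genes called higher and 13.2% lower in NT at 4dpc, and 6.88% and 6.2% in SSRP1KO. Of 19 other Müller glia and astrocyte genes tested, 0 were called higher and 2 lower in NT at 4dpc (median log2 change 0.16): Gpr37, which fell from 19.1, 16.9 and 17.5 CPM to 8.34, 10.2 and 10.1 (-0.90 ± 0.27, edgeR adjusted p = 0.0119), and the transcription factor gene Nfia (-0.96 ± 0.32, 0.0247). Of 19 reactive glia genes tested, 7 were called higher and 0 lower (median 1.43), and in SSRP1KO at 4dpc 3 higher and 0 lower (median 0.68). In NT at 3dpc 5 of the 19 were called higher and 3 lower (median 0.83), beside 11.9% and 12.2% of all genes. Gfap, a gene of the set, is not among the 19 and was not called after crush in NT. Which cells made the RNA of these genes was not tested. Of other endothelial genes 3 of 17 were called higher and 1 lower in NT at 4dpc, of other mural genes 0 of 11, and of other basement membrane genes 2 of 11 higher and 3 lower. The glucose transporter gene Slc2a1, which brain endothelium shares with neurons and glia, rose from 84.5, 107 and 92.7 CPM to 346, 230 and 199 (1.44 ± 0.21, 5.34e-06). The list of other endothelial genes, Slc2a1 included, summed to 94.5, 116.5 and 104.5 CPM and to 356, 239 and 210 CPM in the same libraries. Col18a1, for the basement membrane collagen XVIII, rose from 1.5, 0.243 and 0.734 CPM to 6.10, 7.63 and 6.43 (3.04 ± 0.50, 2.43e-05). The laminin gene Lamb1 fell from 93.9, 102 and 98.8 CPM to 61.9, 60.9 and 58.8 (-0.70 ± 0.15, 0.000581), and Itm2a from 2.50, 2.39 and 2.71 CPM to 0, 0.382 and 0.443 (-3.02 ± 0.64, 0.000594).

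On the mean of the 5 times between SSRP1KO and NT, where 9.64% of all genes were called higher and 10.2% lower, other endothelial genes were called higher in 6 of 17 cases and other mural genes in 5 of 11, with none lower and medians of 0.91 and 0.91 against 0.02 for all genes. Of the other glial genes 2 of 19 were called higher, the glutamate transporter gene Slc1a2 (0.87 ± 0.17, edgeR adjusted p = 0.00083) and the potassium channel gene Kcnj10 (1.22 ± 0.42, 0.0374). The sums in NT and SSRP1KO were 94.5 to 356 and 88.4 to 258 CPM (endothelial), 6.71 to 26.2 and 7.77 to 80.9 (mural), and 86.4 to 182 and 140 to 497 (glial). Each SSRP1KO maximum was in SSRP1KO 3dpc replicate 2. Slc2a1 made up most of the endothelial sum in the NT libraries without crush and at 4dpc, so that sum does not measure endothelial RNA alone. How far the calls in these lists depend on single libraries was not tested. The muscle filament gene Des, also made by pericytes, ran from 0 to 0.222 CPM in NT and from 0 to 7.70 in SSRP1KO, with the fitted difference of 4.99 ± 0.79 (8.35e-05) averaging over a group at 0. At that NT level Des could hardly be called lower. Abcc9, for the sulfonylurea receptor of the pericyte potassium channel, was higher by 1.89 ± 0.43 (0.00261). Lamb1 was lower by -0.29 ± 0.07 (0.00271). On the same average 9 of 15 retinal ganglion cell markers were called lower and none higher (median -0.32), with sums of 7356 to 12920 CPM in NT and 5482 to 8721 CPM in SSRP1KO. Of the other lists, calls were all higher and numbered 2 of 12 microglia and macrophage markers (median 0.35), 1 of 15 of rods and cones (0.42), 3 of 9 of bipolar cells (0.31), 4 of 9 of amacrine and horizontal cells (0.41), 1 of 5 of oligodendrocytes (0.05), 1 of 2 of pigment epithelium (1.12), 2 of 3 of fibroblasts (1.69) and the 1 red blood cell gene tested. How far the number of ganglion cells in the sort moves the other values was not tested.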

How the data were processed

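RNA was measured in 30 libraries of sorted mouse retinal cells. The deposited table holds raw counts, as whole numbers, 1 row per gene symbol. Per the submitters' processing notes, the build was GRCm38 (mm10) and bcl2fastq 2.17, STAR and HTSeq were used; annotation, strand and treatment of multiply mapped reads are not given in these sources. Of 24060 symbols, 27 date-like names, converted from gene symbols, were dropped (0.275% of a library or less). A table of repeat intervals was not used here.

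The test was that of edgeR 4.0.16 (R 4.3.3): TMM scaling, filterByExpr (16621 genes kept), 1 coefficient per group over 30 libraries, 20 residual degrees of freedom, quasi-likelihood tests, two-sided, Benjamini-Hochberg adjustment over all genes tested, threshold 0.05. CPM is relative to the TMM-scaled library size. The SE of an edgeR log2 change is its size divided by the square root of the quasi-likelihood F statistic. Comparisons were each day against no crush within an sgRNA group, SSRP1KO against NT by time and on average, and the difference between crush responses. Comparisons with a common uncrushed group share its 3 libraries. Alternatives used DESeq2 1.42.0, other scaling, no filter, subsets of libraries, a replicate block and a sex score (Xist against Y-linked genes). Replicates of a group differed by a chi-square of at least 11.5 per degree of freedom, above sampling noise. The fit was tested on simulated counts. Levels per kb used exon lengths from GENCODE M21.

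The members and lists were chosen with earlier results of these data known. Library values are given for genes called in any comparison and for the 2 highest genes of each class; from other lists, for at most the 2 with the smallest adjusted p each way among other glial and among other vascular genes. Floors of 3 counts cover counting error only, since reads carry no molecular identifiers.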

Additional observations from a re-analysis of the deposited data

How the results depend on the processing

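The named genes gave 39 results, recomputed in 726 alternative settings: 595 kept the call, 131 lost it, and 0 reversed direction; 16 of the 39 kept it in every alternative. Counts of called genes moved as follows. Percentages in parentheses are the shares called among all genes with an adjusted p in the same setting. For NT at 1dpc (1 gene, 1.86%), DESeq2 gave 3 (3.75%), the compared libraries alone 2 (6.09%), the replicate block 2 (2.45%) and the sex score 0 (0.957%). The count was 3 without the 6, 3 or 4 libraries named next (10.8%, 5.86% and 3.74%). For SSRP1KO at 1dpc (1, 4.04%) the sex score gave 0 (0.915%). At 2dpc (1, 11.7%) DESeq2 scaling gave 2 (11.6%), DESeq2 6 (15.6%), no filter 2 (8.73%) and the compared libraries alone 0 (1.23%). Without the 3 or 4 libraries it was 3 (14.9% and 11.7%). At 3dpc (4, 14.5%) the compared libraries alone gave 2 (7.88%). For SSRP1KO against NT without crush (3, 3.91%) the compared libraries alone and the sex score gave 0 (0.055% and 0.0541%). At 2dpc (0, 0.0842%) DESeq2 gave 1 (3.92%). At 3dpc (1, 1.11%) DESeq2 gave 3 (3.56%) and the sex score 0 (0.975%). Leaving out 6, 3 or 4 libraries at 3dpc gave 6, 2 and 0 (11.2%, 6.24% and 1.73%). At 4dpc (2, 6.91%) the compared libraries alone, the replicate block, the sex score and leaving out 6 libraries each gave 1 (6.27%, 8.38%, 7.79% and 14.5%). For the mean of 5 times (7, 19.8%) the block and the sex score gave 4 each (13.7% and 20.3%) and leaving out 4 libraries 3 (19.1%). For the difference between responses (0, 0.728%) DESeq2, no filter and leaving out 3 libraries gave 1 each (3.84%, 0.665% and 6.53%). The causes were not tested.

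Leaving out 1 library gave 1 to 2, 3 to 5, 4 to 7 and 4 to 6 genes for NT at 1 to 4dpc, and 0 to 1, 2 to 3, 2 to 5 and 2 to 3 for SSRP1KO. The shares of all genes were 0.921% to 1.72%, 13.1% to 17.4%, 18.4% to 20.1% and 21.8% to 24.1% for NT. Those for SSRP1KO were 1.63% to 4.29%, 9.38% to 11.6%, 10.2% to 13.4% and 8.71% to 12.1%. For SSRP1KO against NT it gave 0 to 3 without crush, then 0 to 0, 0 to 1, 0 to 2 and 0 to 2 by day, 3 to 10 for the mean and 0 to 1 for the difference between responses. In the same order the shares of all genes were 1.01% to 6.97%, 0% to 0.0176%, 0% to 4.2%, 0.111% to 0.651%, 2.67% to 5.82%, 16.7% to 21.9% and 0.346% to 1.9%.

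A planned rule removed 6 libraries with low correlation to their group. It left no uncrushed SSRP1KO library, so the comparisons that need that group could not be computed. A stricter rule (3 libraries) and the removal of the 4 libraries that were highest for 3 or more of the genes were added after seeing the data. The 4 were chosen by the values of the same genes, so a call kept or lost without them is no independent check. Replicate numbers did not pair the samples: of 35 same-numbered pairs, 1 had a correlation of deviations over 0.1 (range -0.184 to 0.106), so the replicate block tests only a shared number. With the block the calls of Dkk3 at 4dpc (adjusted p = 0.051) and of Flt1 (0.128), Gfap (0.0544) and Vcam1 (0.0559) for the mean were lost. At 1 CPM or less the counts limit what a fold change can show.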
